A study of Mus musculus with 20 samples.

Results

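The circadian clock genes were followed here in the middle colon of mice with and without dextran sulfate sodium (DSS) colitis. The set was chosen by name, with earlier results of these data known, so counts of members called describe the set only. It holds 10 genes, Arntl, Clock, Npas2, Per1, Per2, Per3, Cry1, Cry2, Dbp and Tef. Of these, 9 had a probe set of their own and all 9 passed the filter on dim genes, out of 16739 genes tested. The probe set that measures Per2 is shared with another gene, so no value is given for Per2.

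Total RNA came from 20 female C57BL/6JOlaHsd mice of about 11 weeks, 1 mouse and 1 Affymetrix array each, in 5 groups of 4 biological replicates. The untreated healthy mice had no treatment beyond saline, and the probiotic healthy mice were given a mix of the strains L930BB and IM386 in saline through a stomach tube. The untreated colitis mice drank 3% DSS for 5 days, which damages the epithelium and inflames the colon, with no treatment beyond saline. The probiotic colitis mice had the same DSS with the 2 strains given before and during it, and the cyclosporine colitis mice had DSS with 25 mg/kg of cyclosporine, an inhibitor of calcineurin in T cells, by mouth each day from day 1 to day 15. No healthy mice were given cyclosporine, so its effect outside colitis was not measured, and it was given in methocel rather than saline, so drug and vehicle cannot be told apart. All mice were kept 5 to a cage under 12 hours of light and 12 hours of dark.

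The clock runs on a feedback loop inside each cell. The activators ARNTL (BMAL1) and CLOCK, or NPAS2 in its place, bind E-box sequences and switch on the Per and Cry genes, whose proteins then repress the activators, and they also switch on Nr1d1, Nr1d2, Dbp and Tef. NR1D1 and NR1D2 (REV-ERB) repress Arntl, Clock and Npas2, while DBP and TEF act on D-box sequences, where NFIL3 opposes them. In many tissues, the colon among them, Arntl and Npas2 messages are therefore high when Dbp and Per3 messages are low, and the level of each gene depends on the hour at which the tissue is taken. The hour and the day at which these mice were sampled, and the order of the groups, are stated in no source used here, so a difference in sampling hour between the groups cannot be told apart from a difference in condition.

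Across all probe sets the array medians lay between 6.22 and 6.29 (log2), and arrays correlated with each other at 0.926 to 0.993. The first principal component took 55.9% of the variance. The scores of 3 arrays stood apart from those of their own group. They were mouse 2 of the untreated healthy, mouse 6 of the untreated colitis and mouse 8 of the probiotic colitis mice. Some member calls and counts without them are given below. Markers of the colon wall, of epithelium (11 of 11), of smooth muscle (6 of 6) and of enteric neurons and glia (5 of 6), were among the genes tested. Values are log2 expression per probe set, so a difference of 1 is a doubling, and they compare arrays for 1 probe set but not the level of one gene with that of another.

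Over the 5 groups together, 7 of the 9 genes differed (limma's F test, adjusted p under 0.05), against 38.9% of all genes tested. The 7 were Per3 (adjusted p = 1.89e-05), Cry2 (7.78e-05), Cry1 (0.000336), Dbp (0.000534), Tef (0.00339), Clock (0.00903) and Npas2 (0.0205). Arntl (adjusted p = 0.712) and Per1 (0.269) did not pass. The plot of every mouse by group shows each of the 9.

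**Figure D1:**
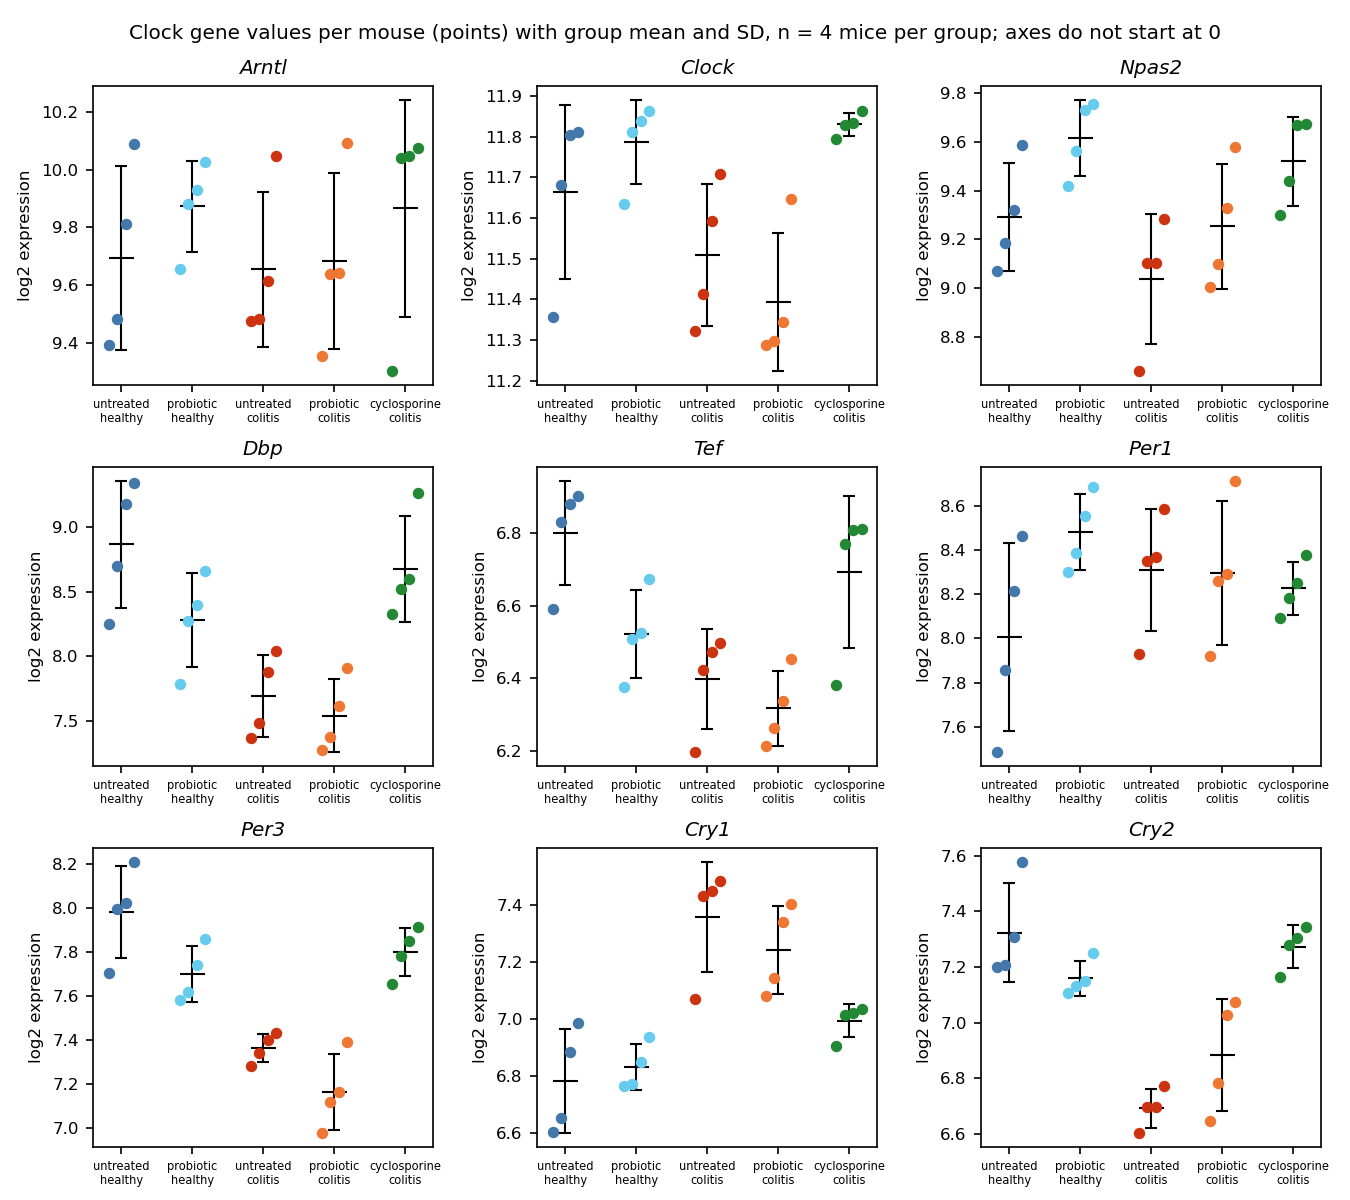
Log2 expression (vertical axes, RMA values as deposited) of the 9 measured clock genes in the 5 groups of 4 mice (horizontal axes), 1 point per mouse with the group mean and SD. Per3 lies at 7.28 to 7.43 in untreated colitis, below all 4 untreated healthy mice at 7.70 to 8.21, whereas the groups of Arntl overlap throughout.

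The first comparison asked what colitis did in mice given saline. Dbp, a D-box activator and one of the strongest outputs of the clock, was 2.26-fold lower in untreated colitis, and Per3, Cry2 and Tef were 1.54-fold, 1.55-fold and 1.32-fold lower. Cry1, a repressor of the activators, was 1.49-fold higher. Arntl, Clock, Npas2 and Per1 did not pass. In all, 5 of 9 members passed (1 up and 4 down), where 26.1% of all genes did (11.7% up and 14.4% down). The same 5 were the members whose groups did not overlap, as was so for 24.6% of all genes. The median change of the 9 was -0.25, and that of all genes was -0.03.

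Dbp (chr7:45705100-45710203 in GRCm38.p6) read 9.34, 8.25, 8.70 and 9.18 in untreated healthy mice 2, 4, 6 and 7, and 7.88, 7.37, 7.48 and 8.04 in untreated colitis mice 5, 6, 7 and 10. The highest colitis mouse was thus below the lowest healthy one, although the healthy mice themselves spread widely. The change was -1.17 ± 0.24 (log2, SE, n = 4 and 4, limma adjusted p = 0.00154). Since whole tissue was measured, fewer cells of a type and less RNA per cell cannot be told apart here or in any result that follows.

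Tef (chr15:81802673-81826863), which binds the same D-boxes, read 6.90, 6.59, 6.83 and 6.88 in untreated healthy mice and 6.50, 6.20, 6.47 and 6.42 in untreated colitis mice. The groups did not overlap, and Tef changed by -0.40 ± 0.10 (limma adjusted p = 0.00636). Without the 3 arrays that stood apart its adjusted p was 0.06. A second Tef probe set gave -0.12 ± 0.10 (adjusted p = 0.425), so the call rests on the brighter of the pair.

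Among the repressors, Per3 (chr4:150997018-151044707) read 8.02, 7.70, 7.99 and 8.21 in the untreated healthy mice and 7.43, 7.34, 7.40 and 7.28 in untreated colitis. Its colitis mice lay close together below the healthy ones, and the change was -0.62 ± 0.10 (limma adjusted p = 0.00022). Cry2 (chr2:92403646-92434085) read 7.20, 7.21, 7.58 and 7.31 in health and 6.70, 6.60, 6.77 and 6.70 in colitis. As with Per3 the colitis mice were close together and all lower, with a change of -0.63 ± 0.09 (adjusted p = 9.83e-05). Cry1 (chr10:85131700-85185054) went the other way, from 6.88, 6.99, 6.65 and 6.61 in health to 7.07, 7.45, 7.48 and 7.43 in colitis. Its groups did not overlap either, mouse 5 being the lowest of the colitis mice, and the change was 0.57 ± 0.10 (adjusted p = 0.000388).

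Per1 (chr11:69095108-69109965), a repressor that glucocorticoids also switch on directly, read 8.46, 7.86, 7.49 and 8.21 in untreated healthy mice and 8.37, 7.93, 8.59 and 8.35 in untreated colitis mice. These values overlapped, and the change of 0.30 ± 0.18 (95% interval -0.08 to 0.69) had an adjusted p of 0.246. Per1 passed without the 3 arrays that stood apart. A list of 10 glucocorticoid-induced genes holds Per1 itself, and also Klf9 and Tsc22d3, which are in the list of other loop genes below. Of the 10, 3 fell in the same comparison, Klf9 among them, and 0 rose. Of 12 immediate early genes 1 rose, Jun. Among all genes 14.4% fell and 11.7% rose.

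The activators showed smaller differences. Arntl (chr7:113178471-113314126) read 9.39, 10.09, 9.81 and 9.48 in untreated healthy mice and 9.48, 10.05, 9.48 and 9.61 in untreated colitis mice, a change of -0.04 ± 0.19 (95% interval -0.43 to 0.36, limma adjusted p = 0.914). Both groups covered nearly the same range. Clock (chr5:76209868-76305603) differed by -0.16 ± 0.10 (interval -0.37 to 0.06, adjusted p = 0.302) and passed only without the 3 arrays that stood apart, among the alternatives run. Npas2 (chr1:39193702-39363240) differed by -0.25 ± 0.14 (interval -0.56 to 0.05, adjusted p = 0.216). For Arntl the interval still holds changes of about the size seen for Tef.

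**Figure D2:**
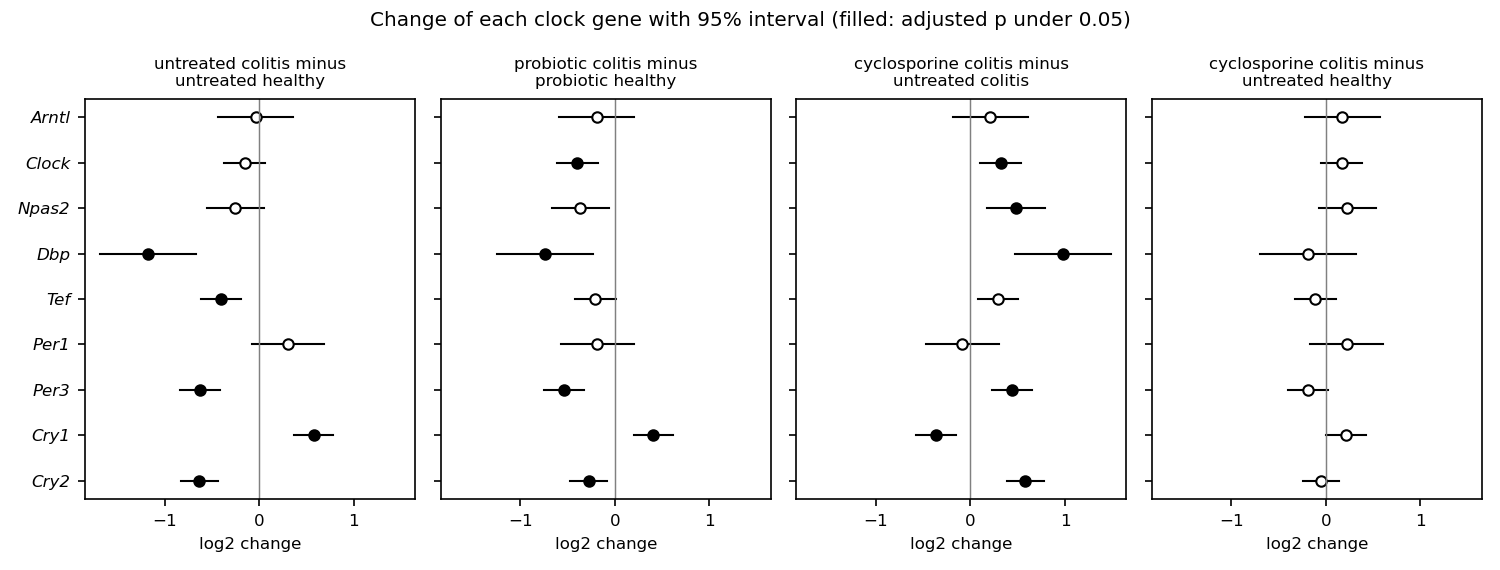
Log2 change with its 95% interval (horizontal axis) of the 9 clock genes (vertical axis) in 4 comparisons, filled where limma's adjusted p was under 0.05. Dbp sits at -1.17 for colitis against health and at 0.98 for cyclosporine within colitis, and no gene is filled for cyclosporine colitis against health.

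Promoters of the 5 genes called in colitis are shown because E-boxes and D-boxes are the sites through which the loop and its output act. RefSeq windows from 250 bases before to 50 after a start site (GRCm38.p6) existed for 9 of the 10 genes, all but Per2. A gene with several windows was counted if any held the motif. The start site need not be the gene start, as the windows of Arntl, Clock, Npas2 and Per1 lie wholly inside their genes. Both strands were searched for the E-box CACGTG, held by 7.15% of 32851 such windows, for its variant CACGTT (4.68%), for the D-box TTATGTAA or TTACGTAA (1.06%) and for the REV-ERB and ROR core TAGGTCA (2.61%). CACGTG reads the same on both strands, and the motifs searched do not overlap each other in the windows printed. Cry1, Per1 and Tef held the E-box, Cry1 and Cry2 the variant, Per3 held 2 D-boxes and Arntl the REV-ERB core. Dbp, which moved the most, held none of these motifs in its window, nor did Clock and Npas2. Sequence outside the windows was not searched. Per3 is the member with the smallest spread among the untreated colitis mice (SD 0.0656), Cry1 and Cry2 moved in opposite directions, and Tef is an output gene with an E-box. Their stretches before the gene start read as follows, each 5′ to 3′ on the strand of the gene, with motif matches in capitals (AACGTG is CACGTT on the other strand).
Per3: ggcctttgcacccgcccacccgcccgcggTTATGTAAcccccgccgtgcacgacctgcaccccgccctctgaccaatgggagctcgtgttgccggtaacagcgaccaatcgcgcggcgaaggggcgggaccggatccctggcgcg
Cry1: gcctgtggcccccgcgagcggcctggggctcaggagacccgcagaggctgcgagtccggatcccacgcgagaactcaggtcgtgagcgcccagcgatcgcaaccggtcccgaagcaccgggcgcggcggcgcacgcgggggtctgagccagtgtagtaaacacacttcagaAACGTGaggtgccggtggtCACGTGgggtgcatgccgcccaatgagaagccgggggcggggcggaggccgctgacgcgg
Cry2: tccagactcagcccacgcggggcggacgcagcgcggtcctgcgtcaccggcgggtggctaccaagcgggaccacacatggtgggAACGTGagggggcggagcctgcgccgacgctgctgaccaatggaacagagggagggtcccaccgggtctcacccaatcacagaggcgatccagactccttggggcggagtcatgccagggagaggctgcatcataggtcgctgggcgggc
Tef: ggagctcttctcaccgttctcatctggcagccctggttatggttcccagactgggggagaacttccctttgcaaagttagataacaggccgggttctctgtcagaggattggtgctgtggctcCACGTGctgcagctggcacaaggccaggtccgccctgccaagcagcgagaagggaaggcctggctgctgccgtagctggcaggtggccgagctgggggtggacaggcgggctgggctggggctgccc
Dbp: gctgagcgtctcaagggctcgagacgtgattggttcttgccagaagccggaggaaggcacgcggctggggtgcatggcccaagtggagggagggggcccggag
These are chr4:151044708-151044852 on the minus strand for Per3, chr10:85185055-85185304 on the minus strand for Cry1, chr2:92434086-92434319 on the minus strand for Cry2, chr15:81802423-81802672 on the plus strand for Tef and chr7:45704997-45705099 on the plus strand for Dbp. The Per3 stretch is cut to 145 bases, since the rest of its window lies in Per3 itself or in a neighbouring gene. This stretch therefore shows 1 of the 2 D-boxes. The Cry2 and Dbp stretches are shorter than 250 bases because the annotated gene begins within those 250 bases. A match is a string of letters, and no binding was measured here.

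Other genes of the loop were read from a list of 29, of which 24 were tested. In colitis 6 of the 24 rose and 8 fell, again where 26.1% of all genes passed, with a median of -0.16. Nr1d1, the REV-ERB alpha repressor of Arntl, fell the furthest of the list, 3.15-fold, from 10.14, 10.02, 10.47 and 10.45 in untreated healthy mice to 8.61, 7.89, 8.64 and 9.31 in untreated colitis mice. Every colitis mouse lay below the lowest healthy one, and the change was -1.66 ± 0.21 (limma adjusted p = 2.83e-05). Its relative Nr1d2 changed by -0.60 ± 0.11 (0.000704).

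Further outputs and partners fell with them. Noct, a clock-controlled phosphatase also called nocturnin, changed by -0.82 ± 0.18 (limma adjusted p = 0.00215), Usp2, a deubiquitinase, by -0.68 ± 0.15 (0.00215) and Cipc, an inhibitor of CLOCK, by -0.58 ± 0.09 (9.84e-05). Wee1, a cell cycle kinase under clock control, and Ppard, a nuclear receptor, changed by -0.42 ± 0.11 and -0.45 ± 0.11. Nfil3, which opposes DBP and TEF at D-boxes, rose by 0.63 ± 0.14 (adjusted p = 0.00276), and its mice read 7.25, 7.40, 7.59 and 7.22 in colitis against 7.16, 6.77, 6.51 and 6.47 in health. Nampt, which makes NAD, rose by 0.65 ± 0.15, Arntl2, a second ARNTL, by 0.40 ± 0.08 and Leo1, of the PAF1 complex, by 0.28 ± 0.07. The other 3 calls were each lost without 1 array, Csnk1e without healthy mouse 4 or colitis mouse 6, Klf9 without healthy mouse 6 or 7 or colitis mouse 5 or 7, and Tspan4 without any of those last 4 mice or colitis mouse 10, all of them on saline.

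Cell type markers moved in the same comparison. Smooth muscle markers fell in 5 of 6 and rose in 0, and their mean on an array lay at 11.49 to 11.81 in untreated colitis against 12.08 to 12.20 in untreated healthy mice. Of the epithelial markers 5 of 11 fell and 1 rose, while 4 of 4 T cell, 4 of 5 macrophage and 4 of 5 neutrophil markers rose. So did 2 of 3 tested B cell, 2 of 4 fibroblast and 1 of 4 endothelial markers. Of the tested markers of enteric neurons and glia 2 of 5 fell, and 0 of 4 adipocyte markers rose or fell. Among all genes 14.4% fell and 11.7% rose. The part of these shifts in the clock genes' changes was not tested.

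Within colitis, cyclosporine was compared with saline. Dbp was 1.98-fold higher with cyclosporine, Cry2, Per3, Npas2 and Clock were higher, and Cry1 was lower. In all, 6 of 9 members passed (5 up and 1 down), where 13.2% of all genes did (7.58% up and 5.58% down). The groups of these 6 did not overlap, nor did those of 15% of all genes, and the median of the 9 was 0.32 against -0.01 for all genes. This comparison shares its untreated colitis mice with the one before it, so a value that was by chance low in those 4 mice gives a fall in one and a rise in the other.

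Dbp read 8.33, 8.52, 8.60 and 9.27 in cyclosporine colitis mice 4, 7, 9 and 10, all above the highest untreated colitis mouse at 8.04, and the change was 0.98 ± 0.24 (limma adjusted p = 0.0118). Cry2 read 7.35, 7.28, 7.30 and 7.16, a change of 0.58 ± 0.09 (adjusted p = 0.000563). Per3 read 7.78, 7.65, 7.85 and 7.91, a change of 0.44 ± 0.10 (adjusted p = 0.00782). For Cry2 and Per3 too, every cyclosporine mouse lay above every untreated colitis mouse, and the calls of Dbp, Cry2 and Per3 held under all 19 alternatives run for this comparison.

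The calls of the other 3 were less firm. Npas2 read 9.67, 9.67, 9.44 and 9.30 with cyclosporine against 8.66, 9.28, 9.10 and 9.10 without, a change of 0.48 ± 0.14 (limma adjusted p = 0.0333). The groups lay close but did not overlap, and the call was lost without untreated colitis mouse 5, 7 or 10 or cyclosporine mouse 4 or 7. Clock read 11.86, 11.83, 11.80 and 11.83 with cyclosporine, the tightest of all its groups, against 11.32, 11.71, 11.41 and 11.59, a change of 0.32 ± 0.10 (adjusted p = 0.048). That call was lost in 11 of 19 alternatives, among them leaving out untreated colitis mouse 5, 7 or 10 or any of the 4 cyclosporine mice, with an adjusted p of at most 0.142. Cry1 read 7.03, 7.01, 6.91 and 7.02, a change of -0.36 ± 0.10 (adjusted p = 0.0213), lost without untreated colitis mouse 7 or 10 or cyclosporine mouse 9. The count of members fell from 6 to 3 without untreated colitis mouse 7, without untreated colitis mouse 10, or with these groups fitted alone.

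Tef, Arntl and Per1 did not pass. Tef read 6.38, 6.81, 6.77 and 6.81 with cyclosporine, mouse 4 lying inside the untreated colitis range, and differed by 0.30 ± 0.10 (limma adjusted p = 0.0606). Without that mouse Tef passed. Arntl read 10.07, 10.04, 10.05 and 9.30 and differed by 0.21 ± 0.19 (95% interval -0.19 to 0.61, adjusted p = 0.508), mouse 10 being the lowest of all 20 mice. Per1 differed by -0.08 ± 0.18 (adjusted p = 0.818).

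Of the 24 other loop genes, 6 rose and 3 fell with cyclosporine, where 7.58% of all genes rose and 5.58% fell. Nr1d1 read 9.78, 10.06, 10.09 and 10.03, all above the highest untreated colitis mouse, and rose 2.6-fold (1.38 ± 0.21, limma adjusted p = 0.000434). Nr1d2 rose by 0.56 ± 0.11 and Cipc by 0.40 ± 0.09, while Nfil3 changed by -0.58 ± 0.14 and Arntl2 by -0.34 ± 0.08. Rora, an activator of Arntl, Klf9, a glucocorticoid-responsive factor, and Hlf, the third D-box activator, also rose, and Nampt fell, but each of these 4 calls was lost without 1 or more of the compared mice. Without cyclosporine mouse 7 the count of 9 became 5. Smooth muscle markers rose in 4 of 6 and fell in 0. Their array means of 11.59 to 12.27 overlapped the 11.49 to 11.81 of untreated colitis. Epithelial markers rose in 3 of 11. Of the neutrophil markers 2 of 5 fell. Their part in the result was not tested.

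The cyclosporine colitis mice were also set against untreated healthy mice. Both groups enter comparisons given above, and each difference here is the sum of the colitis and the cyclosporine changes. It is therefore not separate evidence. Here 0 of 9 members passed, where 6.02% of all genes did (2.64% up and 3.38% down), and 1 had an unadjusted p under 0.05 in limma, Cry1. The groups overlapped for all 9, while those of 14.7% of all genes did not. Cry1 was higher by 0.21 ± 0.10 (95% interval 0.00 to 0.42, adjusted p = 0.202). The difference was -0.19 ± 0.24 for Dbp (interval -0.70 to 0.32), -0.18 ± 0.10 for Per3 (interval -0.39 to 0.03) and 0.17 ± 0.19 for Arntl. Of the other 24 loop genes 0 passed and 6 had an unadjusted p under 0.05. Among all 16739 genes tested, 4017 had an unadjusted p under 0.05 in limma for this comparison. For Dbp the interval overlaps that of untreated colitis against health (-1.68 to -0.67), which uses the same untreated healthy mice. It does not show that the groups were alike.

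Colitis was compared with health a second time, among mice given the probiotic. Dbp, Per3, Cry2 and Clock were lower and Cry1 was higher. In all, 5 of 9 members passed (1 up and 4 down), where 29.7% of all genes did (13.6% up and 16.1% down), and the groups of 3 of 9 members did not overlap, against 31.1% of all genes. The median change was -0.28 against -0.04. None of these 8 mice enters the comparison of the saline groups, though both come from 1 fit with a shared estimate of the spread.

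Per3 read 7.62, 7.86, 7.74 and 7.58 in probiotic healthy mice 4, 5, 6 and 7 and 7.16, 7.12, 6.97 and 7.39 in probiotic colitis mice 3, 5, 7 and 8, a change of -0.54 ± 0.10 (limma adjusted p = 0.00044). Cry1 read 6.85, 6.94, 6.77 and 6.77 in health and 7.08, 7.40, 7.34 and 7.14 in colitis, a change of 0.41 ± 0.10 (adjusted p = 0.0039). Neither gene's groups overlapped. Cry2 read 7.13, 7.15, 7.25 and 7.11 against 6.78, 6.65, 7.03 and 7.07, without overlap, and had a change of -0.28 ± 0.09 (adjusted p = 0.0301).

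Dbp read 7.79, 8.40, 8.66 and 8.27 in probiotic healthy mice and 7.91, 7.37, 7.61 and 7.27 in probiotic colitis mice. Healthy mouse 4 lay below colitis mouse 3, and the change was -0.74 ± 0.24 (limma adjusted p = 0.0267). Clock read 11.63, 11.86, 11.84 and 11.81 against 11.29, 11.35, 11.30 and 11.65, where only colitis mouse 8 reached the healthy range, and changed by -0.39 ± 0.10 (adjusted p = 0.00725). The Dbp call was lost without probiotic healthy mouse 5 or 6 or probiotic colitis mouse 5 or 8, and the Cry2 call without probiotic healthy mouse 5 or 6 or probiotic colitis mouse 3 or 5. The count was 3 without probiotic healthy mouse 5, probiotic healthy mouse 6 or probiotic colitis mouse 5. Without the 3 arrays that stood apart it was 5, with Npas2 called and Dbp not.

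Tef (-0.20 ± 0.10), Npas2 (-0.36 ± 0.14), Arntl (-0.19 ± 0.19) and Per1 (-0.19 ± 0.18) did not pass, at limma adjusted p of 0.143, 0.0658, 0.497 and 0.496. Of the 24 other loop genes 5 rose and 10 fell, where 29.7% of all genes passed. Nr1d1 read 9.83, 10.35, 10.15 and 10.14 in health and 8.66, 8.33, 8.21 and 8.89 in colitis, a change of -1.60 ± 0.21 (adjusted p = 1.94e-05). Every colitis mouse lay below every healthy one. Noct changed by -0.95 ± 0.18, Cipc by -0.75 ± 0.09 and Klf9 by -0.70 ± 0.09, while Nampt rose by 0.92 ± 0.15, Nfil3 by 0.78 ± 0.14 and Bhlhe41, a DEC repressor that competes at E-boxes, by 0.68 ± 0.16. Of 10 glucocorticoid-induced genes 6 fell, among them Zbtb16 (-1.86) and Sgk1 (-1.05), and of 12 immediate early genes 4 rose and 0 fell, where 16.1% of all genes fell and 13.6% rose. Smooth muscle markers fell in 4 of 6, with array means of 11.43 to 11.89 against 11.94 to 12.10, and 5 of 11 epithelial markers fell and 2 rose. Markers of macrophages rose in 5 of 5, of T cells in 4 of 4, of B cells in 3 of 3 tested, of neutrophils in 4 of 5 and of endothelium and fibroblasts in 3 of 4 each, and 3 of 5 of enteric neurons and glia fell. The part of these lists in the members' changes was not tested.

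The probiotic itself was compared with saline in health and in colitis. In healthy mice 0 of 9 members passed limma, as 0% of all genes did, with 1511 genes and 5 members at an unadjusted p under 0.05. Those 5 were Dbp at -0.59 ± 0.24, Per3 at -0.28 ± 0.10, Tef at -0.28 ± 0.10, Npas2 at 0.33 ± 0.14 and Per1 at 0.48 ± 0.18, with adjusted p between 0.425 and 0.524. By mouse, Dbp read 7.79 to 8.66 with the probiotic and 8.25 to 9.34 with saline, so the groups overlapped, as they did for all 9 members, while those of 7.07% of all genes did not. The 95% interval for Dbp ran from -1.09 to -0.08. The untreated healthy mice are shared with the comparison of untreated colitis and health.

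In colitis 0 of 9 members passed for the probiotic against saline, where 2.8% of all genes did (2.13% up and 0.669% down). At an unadjusted p under 0.05 in limma there were 0 members, against 2984 of all 16739 genes tested. The groups overlapped for all 9 members, while those of 7.9% of all genes did not. Dbp differed by -0.15 ± 0.24 (95% interval -0.66 to 0.36), Per3 by -0.20 ± 0.10 (adjusted p = 0.305) and Cry2 by 0.19 ± 0.09 (0.291). The effect of colitis was not shown to depend on the probiotic for any member. In the interaction test 0 of 9 passed in limma, and 0% of all genes did, with 1446 genes and 1 member at an unadjusted p under 0.05, Cry2 at 0.36 ± 0.13 (adjusted p = 0.513). For Dbp the interaction was 0.44 ± 0.34.

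Between the treated colitis groups, 5 of 9 members were higher with cyclosporine than with the probiotic and 0 lower, where 23.2% of all genes passed (11.3% up and 12% down). The groups of 5 members did not overlap, Clock, Per3, Cry1, Cry2 and Dbp, against 21% of all genes. Dbp differed by 1.14 ± 0.24 (limma adjusted p = 0.00239), Per3 by 0.64 ± 0.10 (0.000271), Clock by 0.44 ± 0.10 (0.00521), Cry2 by 0.39 ± 0.09 (0.005) and Tef by 0.38 ± 0.10 (0.0112). The lowest cyclosporine mouse lay above the highest probiotic colitis mouse for Dbp (8.33 against 7.91) and for Per3 (7.65 against 7.39), but not for Tef (6.38 against 6.45). Of the 24 other loop genes 7 rose, led by Nr1d1 at 1.47 ± 0.21, and 3 fell, led by Nfil3 at -0.79 ± 0.14. In this comparison 5 of 6 smooth muscle, 3 of 11 epithelial, 2 of 5 tested neuron and glia and 1 of 4 adipocyte markers were higher. Lower were 4 of 4 T cell, 3 of 3 tested B cell, 4 of 5 macrophage and 4 of 5 neutrophil markers. So were 3 of 4 fibroblast and 3 of 4 endothelial markers. Of 12 immediate early genes 5 were lower, and of 10 glucocorticoid-induced genes 2 were higher and 1 lower. The part of these lists was not tested.

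Set in order of the group means, Dbp ran from untreated healthy (8.87 ± 0.49, SD, n = 4) through cyclosporine colitis (8.68 ± 0.41), probiotic healthy (8.28 ± 0.36) and untreated colitis (7.69 ± 0.32) to probiotic colitis (7.54 ± 0.28). Neither the untreated healthy and cyclosporine colitis mice nor the pair of colitis groups at the low end differed beyond their spread, and cyclosporine colitis was not compared with probiotic healthy. Per3 had the same order, at 7.98 ± 0.21, 7.80 ± 0.11, 7.70 ± 0.13, 7.36 ± 0.07 and 7.16 ± 0.17. Arntl had its group means between 9.66 and 9.87, a narrower span than the SD of the cyclosporine colitis mice alone (0.38). The heat map of the whole loop shows the same groups side by side.

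**Figure D3:**
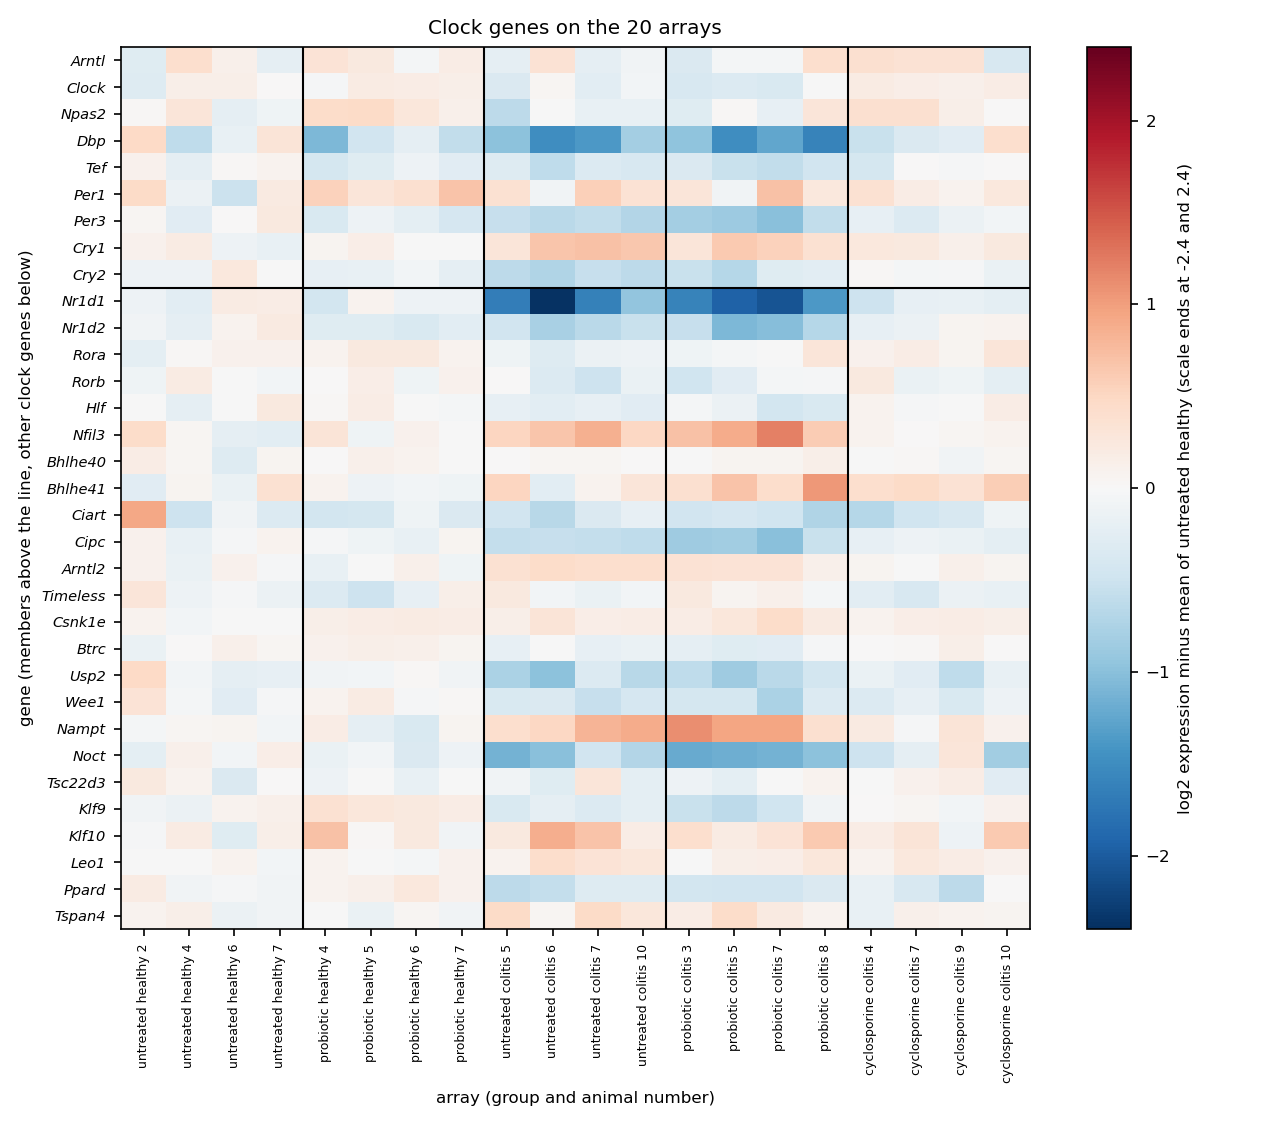
Log2 expression minus the mean of the untreated healthy mice (colour scale) of the 9 members and 24 other loop genes (rows) on the 20 arrays (columns, by group). Nr1d1 departs furthest from the healthy mice in both the untreated and the probiotic colitis groups and reads near the healthy mice in cyclosporine colitis, with a group mean of 9.99 against 10.27.

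Differences between mice of 1 group were compared next, and 4 of the 8 genes set against Arntl passed. After subtracting the group means, Dbp was low on the arrays where Arntl was high, with Pearson's r of -0.85 (permutation within groups, p = 0.00013, adjusted over 8 relations 0.00104) and Spearman's rho of -0.84 (p = 6e-05, adjusted 0.00048) over 20 mice. Cyclosporine colitis mouse 10 had the lowest Arntl of all mice (9.30) and the highest Dbp of its group (9.27), and untreated healthy mouse 2 had the lowest Arntl (9.39) and the highest Dbp (9.34) of its own. Untreated healthy mouse 4 had the highest Arntl (10.09) and the lowest Dbp (8.25) of that group. Within 8 healthy mice r was -0.95 (exact permutation within groups, adjusted p = 0.0139), and within 12 colitis mice it was -0.83 (exact, adjusted p = 0.0289). Without the 2 mice farthest from the median of Arntl, probiotic colitis mouse 8 and cyclosporine mouse 10, it was -0.82 (adjusted p = 0.00624), and it ran from -0.91 to -0.81 when each mouse was left out in turn. On the values with group means kept, r was -0.28 (adjusted p = 0.386).

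Tef, the other D-box activator, also ran against Arntl, with r of -0.65 (permutation, adjusted p = 0.0297) and rho of -0.68 (0.0186). The activators ran with it, Npas2 at r of 0.69 (adjusted p = 0.016) and rho of 0.71 (0.0104), and Clock at r of 0.59 (0.0284) and rho of 0.56 (0.0361). These 3 relations were less firm than that of Dbp. Without the 2 farthest mice Tef was at -0.77 (adjusted p = 0.00024), while Npas2 (0.56, adjusted p = 0.12) and Clock (0.64, adjusted p = 0.11) kept a positive r but no longer passed over the 18 mice left. Without the 3 arrays that stood apart Clock was at 0.14 (adjusted p = 0.658), Npas2 at 0.61 (0.0567) and Tef at -0.65 (0.132), while Spearman's rho still passed for Npas2 (0.63, adjusted p = 0.0482) and Tef (-0.69, 0.0482). Without untreated healthy mouse 4 Pearson's r passed for none of the 3, at 0.54 for Clock, 0.63 for Npas2 and -0.57 for Tef, and rho passed for Npas2 and Tef (both adjusted p = 0.0413). By Pearson's r Tef also missed without mouse 2 or 7 of the untreated healthy group, mouse 4 or 6 of the probiotic healthy group, untreated colitis mouse 6 or probiotic colitis mouse 3, though its rho passed without each of these except untreated colitis mouse 6. Clock missed by both measures without untreated healthy mouse 2, untreated colitis mouse 6 or probiotic colitis mouse 8. Per1 (r = -0.41, adjusted p = 0.195), Per3 (-0.29, 0.39), Cry2 (0.25, 0.412) and Cry1 (0.22, 0.412) did not pass in this permutation test, although Per3 passed without probiotic colitis mouse 8 (-0.61, adjusted p = 0.0353).

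**Figure D4:**
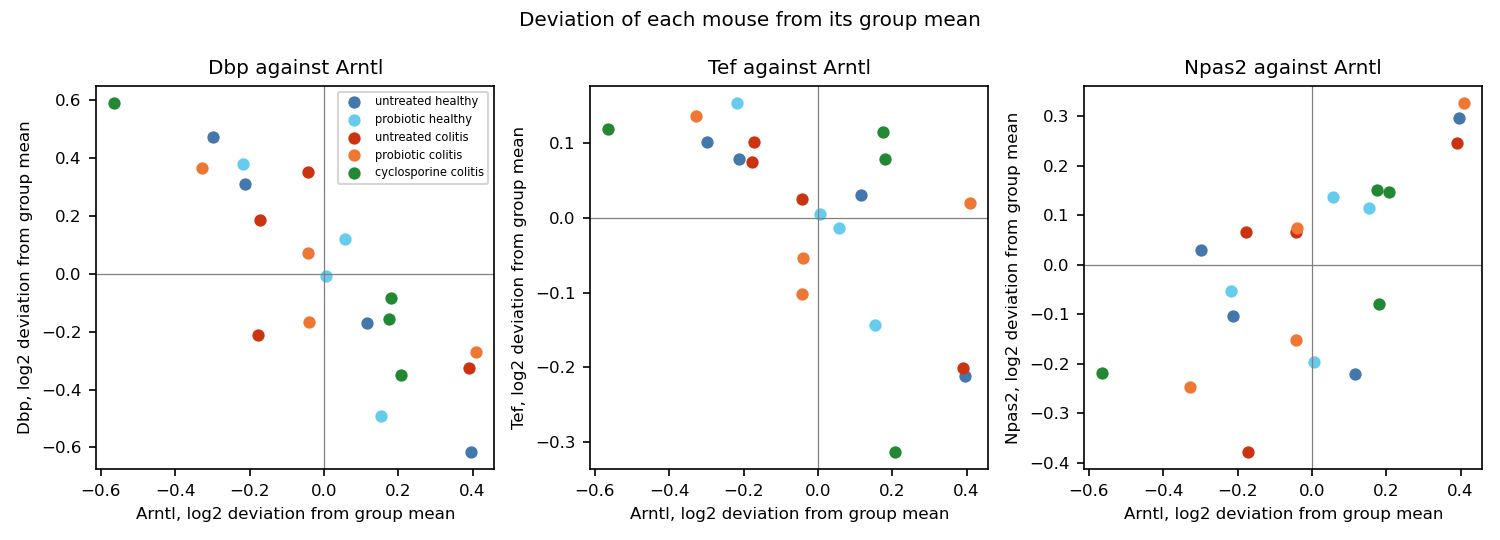
Deviation of Dbp, Tef and Npas2 from their group means (vertical axes, log2) against that of Arntl (horizontal axes, log2), 1 point per mouse and coloured by group (20 mice). Dbp falls along Arntl (r = -0.85) and Tef does so less tightly (r = -0.65), while Npas2 rises (r = 0.69).

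The rest of the array puts these relations in scale, as a description with no test. Of 16738 genes, Arntl had the lowest correlation of all with Dbp, and Dbp the third lowest with Arntl, after Pgs1 (-0.87) and Akt2 (-0.86). Tef was the 25th most alike Dbp (0.71) and Ciart, a clock repressor also called CHRONO, the 46th (0.67). With Arntl, Npas2 was the 224th most alike and Clock the 615th. The other members stood nearer the middle, where 24.7% of genes had a larger absolute r than Per1, 42.8% than Per3, 50.6% than Cry2 and 56.6% than Cry1. Nr1d1, at r of -0.23 with Arntl, was among those too, with 53.4% of genes above it. All of these share the same 20 arrays and the same normalization.

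The within-group relation and the group differences can be read side by side. Between untreated healthy and untreated colitis mice Dbp changed by -1.17 while Arntl differed by -0.04, with an interval from -0.43 to 0.36. Cry1 rose where Cry2 and Per3 fell, and Nr1d1 changed by more than any member. Whether the groups were sampled at different hours was not tested, since no hour is recorded for any mouse in the sources used here.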

How the data were processed

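The authors deposited 1 log2 value for each probe set and array, computed by RMA per the submitters' processing notes, and its version and the genome build are stated in no source used here. RMA makes array distributions alike, so a shift of all genes at once would be removed. Of 41801 probe sets, 29195 had values. Probe sets of 1 gene were kept, the one with the highest mean standing for its gene, and a gene was tested if it was above the 25th percentile (5.30) on at least 4 arrays. Groups and animal numbers came from the labels. Limma 3.58.1 in R 4.3.3 fitted all 20 arrays in 1 model with 5 group means, with Benjamini-Hochberg adjustment over 16739 genes and a threshold of 0.05. Correlations with Arntl used values minus group means, with 100000 permutations within groups, or all of them for subsets. Of the members 8 could be set against Arntl, Per2 being unmeasured. The fits were tested on simulated data. Mice are separate animals, and 4 a group limits the precision. Gene names came from the platform annotation, and promoter sequences and gene positions from RefSeq (GRCm38.p6).

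The members and all gene lists were chosen with earlier results of these data known. All members are named, list genes may be named, and the genes most alike Arntl or Dbp are the 8 at each end of the correlations, or the 3 closest in group means, leaving out predicted genes. Alternatives were no filter or a 50th percentile filter, repeated quantile normalization, median centring, a trended robust fit, array weights, mean or separate probe sets, the animal number as a block, the compared groups alone and each array left out. Leaving out the 3 arrays that stood apart was added after seeing the data.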

Additional observations from a re-analysis of the deposited data

Results flagged for a closer look

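In 5 of the 45 sets of 4 mice (9 genes in 5 groups) 1 mouse lay far from the other 3, its gap to the nearest being over 0.829 of the whole range (Dixon's 95% value, which chance passes in about 1 in 20 sets). Arntl read 9.30 in cyclosporine colitis mouse 10, where the nearest mouse read 10.04. Tef read 6.38 in cyclosporine colitis mouse 4, with the nearest at 6.77, and Cry1 read 6.91 in cyclosporine colitis mouse 9, with the nearest at 7.01. Clock read 11.65 in probiotic colitis mouse 8, with the nearest at 11.35. Cry1 read 7.07 in untreated colitis mouse 5, with the nearest at 7.43. Of the 5, probiotic colitis mouse 8 is also among the 3 arrays that stood apart over all genes.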

How the results depend on the processing

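Of 21 member changes called across the comparisons, 14 kept their call under every alternative run, 36 of 399 reruns lost a call and 0 reversed. Of 48 called changes of the other loop genes, 36 kept theirs, and 75 of 908 reruns lost one. Members called for cyclosporine in colitis numbered 3 with the compared groups alone and 3 to 6 without 1 mouse, and for colitis on probiotic 3 to 6 without 1 mouse. Other loop genes called for the probiotic in colitis numbered 1 (Cipc) with array weights, 1 without the 3 arrays that stood apart and 0 to 2 without 1 mouse. Without 1 mouse they numbered 5 to 9 for cyclosporine in colitis, 0 to 1 (Klf9) for the interaction and 0 to 1 (Ppard) for cyclosporine colitis against health. Of the 4 correlations with Arntl that passed by Pearson's r, 2 did so with group means kept, 2 without the 2 farthest mice, 1 without the 3 arrays apart, 2 in the 8 healthy mice and 1 to 4 without 1 mouse. Repeated quantile normalization and centring moved the median of all genes by at most 0.02.

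The animal numbers were not taken as pairs in the main fit. Deviations of same-numbered mice correlated at -0.19 to 0.43 with a median of 0.02, and 5 of 20 pairs were over 0.1. Whether some same-numbered mice shared a cage or a day was not tested. With the number as a replicate block 6 members were called for colitis (Per1 added), 5 for cyclosporine in colitis, 5 for colitis on probiotic, 4 for cyclosporine against probiotic, 7 over the 5 groups and 0 elsewhere, and 3228 genes in all for colitis.

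With 4 mice a group, 1 array each and no recorded hour or day of sampling, cage or order, differences in these cannot be told apart from the groups. Probe set values carry no count of molecules.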

Other observations

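Outside the loop, the genes whose deviations from group means followed Arntl most closely over the 20 arrays were Rapgefl1 (r = 0.86), Yod1 (0.86), Slc22a18 (0.86), Nhsl1 (0.83), Slc8b1 (0.83), Sorcs2 (0.83), Uaca (0.83) and Trpv3 (0.82). Those most opposite to Arntl were Pgs1 (-0.87), Akt2 (-0.86), Dbp (-0.85), Plekhm1 (-0.84), Cd1d1 (-0.83), Dusp7 (-0.83), Mrm1 (-0.82) and Sbno2 (-0.81). Sac3d1 (0.83), Mrm1 (0.81), Agtrap (0.79), Ddx39a (0.78), Slc25a22 (0.78), Snhg9 (0.78), Snhg17 (0.77) and Eya3 (0.75) were most alike Dbp. Most opposite to Dbp after Arntl were Adgrl2 (-0.84), Smurf2 (-0.80), Zscan29 (-0.79), Yod1 (-0.78), Efnb2 (-0.77), Ahcyl2 (-0.76) and Mep1b (-0.75). Mrm1 and Yod1 stand near both ends.

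In the 5 group means, the genes closest to Dbp were Ipmk, Actg2, a smooth muscle actin, and Krt73 (r from 0.995 to 0.999), and those closest to Per3 were Zfp799, Slc25a35 and Tfpi2 (0.997 to 0.999). Npas2 was closest to Scn7a, Pcnx and Dnm1 and Arntl to Inmt, Zscan29 and Tmx4. With 5 points and 6204 genes such values are high for many pairs, so they describe the order of the groups only.

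Ciart had 1 high value, 7.42 in untreated healthy mouse 2, the mouse with the highest Dbp of all 20 (9.34). The other 19 mice read between 5.77 and 6.41.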
